A study of Rattus norvegicus with 46 samples.

Results

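A set of 8 genes of the classical complement pathway and of the lysosome-rich phagocyte were followed through hypertrophic, control and neonatal rat hearts: C1qb, C1s and C3, the complement regulator Serping1, the lysosomal and secreted proteins Lyz2, Ctss and Grn, and the lipid antigen-presenting molecule Cd1d1. A gene entered if the array carried a probe set annotated to its symbol and to no other, and all 8 did. They were read by 11 of the 8740 probe sets and are 8 of the 4736 genes that the array named in this way. C1qb, C3 and Grn had 2 probe sets each, and such a gene is led here by the brighter of them. Several of these genes also belong to a core list that the study drew from the same arrays, so their change is not independent evidence for that list.

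The data were left ventricular expression values of male Wistar rats on 46 oligonucleotide arrays, 1 RNA pool of several animals per array. Ascending aortic banding was sampled at 6, 12 and 16 weeks with 2 arrays each and at 30 weeks with 4, myocardial infarction at 3 and 9 weeks with 4 arrays each, and an aortocaval shunt, which overloads the heart with volume, at 3 and 8 weeks with 2 arrays each. Each of these 8 surgical groups had 2 sham arrays of its own. Angiotensin II and Ditpa, a thyroxine analogue (3,5-diiodothyropropionic acid), were given under the skin for 2 weeks, with 2 arrays each. Both were set against the same 2 saline vehicle arrays, so the effects of the hormones share their controls, although the study's methods describe a pump vehicle for the one and saline injections for the other. The 2 neonatal arrays had no treatment and were set against the 18 adult control arrays. Per the study's methods the neonatal hearts were taken 3 days after birth. The scar had been removed from the infarcted hearts, which had been selected for large infarctions, so those arrays read the remaining ventricle. The age of the adult rats is not given in the sources used here. Because each array holds a pool, the p-values reflect pool-to-pool spread rather than spread among single rats, and 2 arrays in most groups limit the precision. In a whole ventricle, more cells of a type and more RNA per cell cannot be told apart.

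The classical complement pathway starts when C1q, of which C1qb encodes a chain, binds antibody or a damaged surface. The proteases C1r and C1s are then activated, which leads to cleavage of the central component C3. Serping1 encodes C1 inhibitor, which inactivates C1r and C1s. Macrophages make C1q and are rich in lysozyme (Lyz2), which cuts bacterial cell walls, and in cathepsin S (Ctss), a protease that prepares antigens for class II molecules, while fibroblasts are a common source of C1s and C1 inhibitor. Granulin (Grn) encodes progranulin, a secreted growth factor that is also taken to lysosomes, and Cd1d1 presents lipids to natural killer T cells.

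The promoters of 6 of the 8 genes were at hand from RefSeq (build GRCr8), those of C1qb, C3, Lyz2, Ctss, Grn and Cd1d1, and were searched because most of these genes moved together in the hearts described here. A pair of motifs was searched on both strands of the 250 bases before the transcription start: GAGGAA, the core of sites of the myeloid factor PU.1 and its relatives, and a repeat found in interferon response elements, GAAA followed by any 2 bases and GAAA again. GAGGAA occurred in 5 of the 6 (all except C3) and in 23.3% of all 33465 promoters, and the interferon-type repeat in 2 of the 6 (Ctss and Grn) and in 3.41% of all. The matches of Lyz2 and Ctss lie past an earlier annotated start of the same gene and are not shown. Before every annotated start, GAGGAA remained in 3 of the 6 and the repeat in 1. The shares of all promoters are for the full 250 bases, and none was computed under this narrower rule. The stretches of C1qb and Grn are shown as genes that were higher in the mean over the treated groups, and that of Cd1d1 as the gene that was lower. Matches are in capitals, and a match is a run of letters and not a shown binding site.
C1qb (chr5:154407828-154408077, minus strand): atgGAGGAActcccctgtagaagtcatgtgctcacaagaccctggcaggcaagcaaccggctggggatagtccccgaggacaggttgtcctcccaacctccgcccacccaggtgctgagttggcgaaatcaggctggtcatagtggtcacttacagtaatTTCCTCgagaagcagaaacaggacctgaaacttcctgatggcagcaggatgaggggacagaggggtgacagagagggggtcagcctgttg
Grn (chr10:87887584-87887833, plus strand): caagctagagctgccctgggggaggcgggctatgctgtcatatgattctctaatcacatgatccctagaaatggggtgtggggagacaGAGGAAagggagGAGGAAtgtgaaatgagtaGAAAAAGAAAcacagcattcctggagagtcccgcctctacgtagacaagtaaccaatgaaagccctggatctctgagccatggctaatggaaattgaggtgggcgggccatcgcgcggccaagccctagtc
Cd1d1 (chr2:174725030-174725279, minus strand): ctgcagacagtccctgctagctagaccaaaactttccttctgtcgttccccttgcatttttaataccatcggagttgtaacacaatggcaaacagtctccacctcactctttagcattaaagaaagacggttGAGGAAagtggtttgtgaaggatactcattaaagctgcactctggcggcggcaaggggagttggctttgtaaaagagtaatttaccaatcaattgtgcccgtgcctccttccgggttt

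The tissue label was met by the cardiomyocyte markers, whose brightest probe sets (Tnni3 and Actc1) averaged 46200 intensity units, near the top of the scale. None of the 11 probe sets of the 8 genes went below 162 units. The lowest of all was the second C3 probe set, whose mean of 230 units lay at percentile 6.88 of all probe sets, whereas Grn lay at percentile 93.9 and Lyz2 at 88.4. Levels of different probe sets cannot be set against each other, since each has its own probes.

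In the mean over the 10 treated groups, of which banding makes up 4, 6 of the 8 genes were higher and 1 was lower than in their own controls. With the 5 models weighted equally none of the 8 passed by limma, at effects of 0.25 to 0.70 log2 for the 6 genes and -0.33 for Cd1d1, the lowest adjusted p being 0.0841 for Lyz2. The question was whether a gene moved in common over models that load the heart in different ways. The mean effect over treated groups, each against its own sham or vehicle arrays, was largest for Lyz2, and C1qb, C1s, Serping1, Ctss and Grn rose by 0.34 to 0.43 on the log2 scale. Cd1d1 fell, and C3 gave no call. Over all 8740 probe sets 3.64% were called higher and 1.57% lower (limma, adjusted p below 0.05), and the median effect of the 8 genes was 0.38 log2 beside 0.01 for all probe sets.

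**Figure D1:**
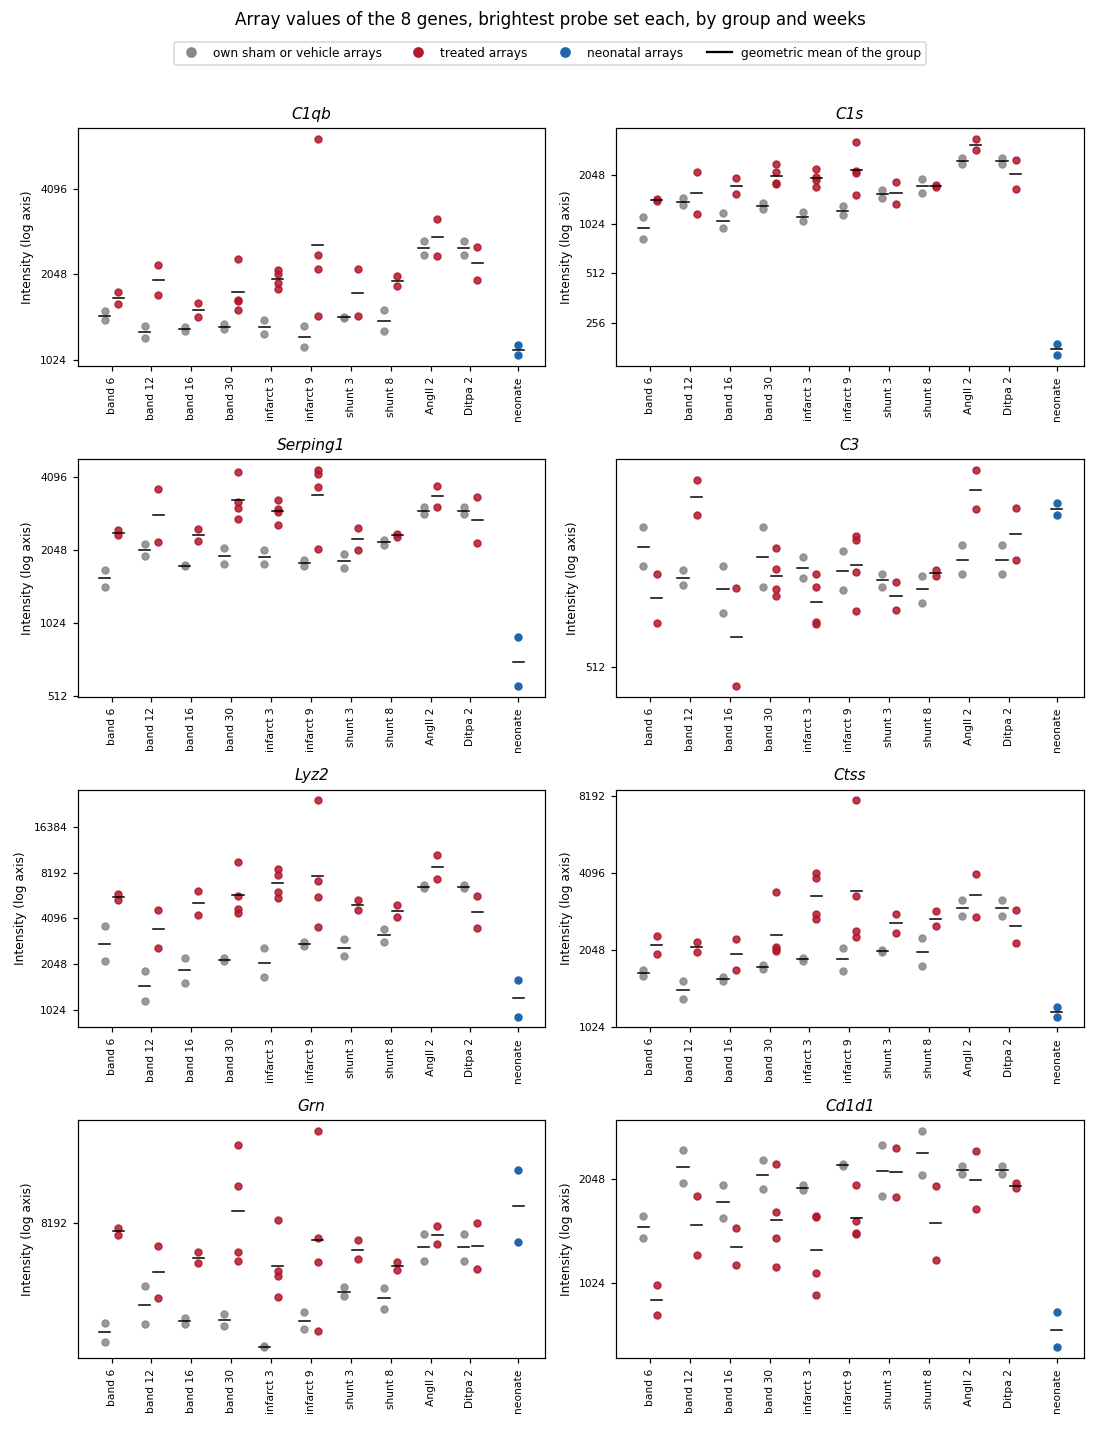
Intensity of the brightest probe set of each gene (log axis) in every array, in arbitrary units, with each treated group (red) beside its own sham or vehicle arrays (grey), the neonatal arrays in blue, weeks as numbers after the model and bars at the geometric mean of each group. Lyz2 lay above its shams in all 22 surgical arrays, C1s was at 162 and 190 in the neonatal hearts, and the vehicle arrays were high for several genes.

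C1qb rose by 0.38 ± 0.103 log2 on average (adjusted p = 0.0238), above its own control mean in 24 of 26 treated arrays. In banded hearts its intensity had a lowest value of 1455, a median of 1663 and a highest of 2324, against 1223, 1343 and 1519 in their 8 shams. The infarcted hearts read 1913, 1815, 2059 and 2126 at 3 weeks against 1422 and 1263 in sham, and 6128, 2142, 2393 and 1461 at 9 weeks against 1138 and 1350. Every infarction array lay above both of its shams, but 1 array, replicate 1 of 9 weeks, was far above the rest. The shunt arrays, at 2141 and 1459 after 3 weeks and 1861 and 2029 after 8, were also above their shams (1440 and 1457, then 1294 and 1535), with 1459 and 1457 nearly touching. The second probe set of C1qb rose by 0.37 ± 0.106 (adjusted p = 0.0335), and the log2 ratios of both probe sets correlated with r = 0.94 over the 26 treated arrays.

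C1s, a protease activated after C1q binds, rose by 0.38 ± 0.0791 log2 (adjusted p = 0.00259, higher in 22 of 26 arrays). At 3 weeks of infarction it read 1899, 1722, 2222 and 1980 against 1211 and 1063 in sham, and at 9 weeks 3245, 2086, 2164 and 1545 against 1161 and 1316. Neither time point overlapped with its shams. Banded hearts ranged from 1178 over a median of 1811 to 2386, and their shams from 834 over 1225 to 1473, with an overlap at 12 weeks, where 1 array read 1178 and its shams 1473 and 1340. The shunt arrays overlapped with sham at both times, with 1854 and 1361 against 1482 and 1649 at 3 weeks, and 1723 and 1779 against 1594 and 1927 at 8 weeks. The model means were 0.80 ± 0.151 in infarction (adjusted p = 0.00212), 0.52 ± 0.12 in banding (adjusted p = 0.00669) and 0.01 ± 0.175 in the shunt (adjusted p = 0.996).

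Serping1, the inhibitor of C1s, rose in the same hearts. Its average effect was 0.43 ± 0.0826 log2 (adjusted p = 0.000925), and it was higher in 25 of 26 arrays, the exception being 1 Ditpa array. Infarcted hearts read 3280, 2600, 2941 and 3016 at 3 weeks against 2037 and 1790, and 4217, 3704, 4382 and 2066 at 9 weeks against 1853 and 1753. In banding the values ran from 2212 over a median of 2624 to 4266, and in the 8 shams from 1438 over 1776 to 2160. No surgical group overlapped with its own shams, although the shunt at 8 weeks (2318 and 2378 against 2142 and 2255) came close. The effect was 0.78 ± 0.158 in infarction (adjusted p = 0.004) and 0.57 ± 0.125 in banding (adjusted p = 0.00397), and in the shunt it was 0.20 ± 0.182 without a call (adjusted p = 0.854). Over the 26 treated arrays the log2 ratios of C1s and Serping1 correlated with r = 0.86, a description in which arrays of a group share their controls.

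C3, the central component on which all activation routes meet, was not called in either direction. Its brighter probe set differed by 0.01 ± 0.0355 log2 on average (adjusted p = 0.933), with 11 of 26 arrays above their controls. Its intensity stayed between 490 and 809 over the treated arrays and between 581 and 709 over the adult controls, and the ranges overlapped. The largest model mean was that of angiotensin II, where both arrays (737 and 809) lay above vehicle (635 and 678), 0.23 ± 0.111 log2 with an adjusted p of 1. The second probe set differed by 0.47 ± 0.171 there (adjusted p = 0.663), and its 2 arrays (300 and 385) also lay above vehicle (240 and 249). Both C3 probe sets were dim, and their ratios over the 26 arrays correlated with r = 0.16 only, so they do not give 1 reading of the gene.

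Lyz2 had the largest average effect of the 8 genes, 0.97 ± 0.158 log2, a fold change of 1.96 (adjusted p = 0.000136, higher in 24 of 26 arrays). Banded hearts read 5879 and 5382 at 6 weeks, 2632 and 4664 at 12, 6173 and 4278 at 16, and 5775, 9557, 4703 and 4418 at 30 weeks. Their shams, in the same order, read 3647 and 2130, 1175 and 1850, 2249 and 1536, and 2130 and 2257. Each banded group thus lay wholly above its shams, and the banding mean was 1.28 ± 0.239 (adjusted p = 0.000721). Infarcted hearts read 6126, 5590, 8620 and 7928 at 3 weeks against 2599 and 1677, and 24456, 7185, 5663 and 3586 at 9 weeks against 2882 and 2696. The infarction mean was 1.60 ± 0.303, a fold change of 3.04 (adjusted p = 0.00211). The shunt arrays (5436, 4657, 5036 and 4184) were also all above their shams (3001, 2305, 2883 and 3482), yet that effect of 0.74 ± 0.35 was not called (adjusted p = 0.57).

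Ctss rose by 0.41 ± 0.107 log2 on average (adjusted p = 0.0171, higher in 23 of 26 arrays). At 3 weeks of infarction it read 2836, 2702, 4120 and 3916 against 1864 and 1918, and at 9 weeks 7894, 3324, 2434 and 2309 against 1704 and 2090. Banded hearts ran from 1720 over a median of 2088 to 3456 and their shams from 1321 over 1618 to 1798. No surgical group overlapped with its own shams. The model mean passed in infarction, 0.85 ± 0.204 (adjusted p = 0.0176), and did not pass in banding, 0.41 ± 0.161 (adjusted p = 0.15), or the shunt, 0.39 ± 0.235 (adjusted p = 0.682).

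Grn rose by 0.34 ± 0.0728 log2 on average (adjusted p = 0.00342), and by 0.30 ± 0.0626 on its second probe set (adjusted p = 0.00205). It was higher in 24 of 26 arrays on each. Banded hearts read 7788 and 8002 at 6 weeks, 5956 and 7431 at 12, 6911 and 7231 at 16, and 9545, 11326, 7235 and 6986 at 30 weeks, and their shams ran from 4969 over a median of 5360 to 6267. The only overlap was at 12 weeks, and the banding mean was 0.46 ± 0.11 (adjusted p = 0.00809). In infarction the brighter probe set missed the threshold at 0.49 ± 0.139 (adjusted p = 0.0621), while the second passed at 0.49 ± 0.12 (adjusted p = 0.0221). The array that fell short was replicate 4 of 9 weeks, at 5205 against 5234 and 5625 in sham.

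Cd1d1 was the 1 gene that fell, by 0.41 ± 0.0894 on the log2 scale (adjusted p = 0.0033), with 3 of 26 treated arrays above their controls. Banded hearts read 1017 and 834 at 6 weeks, 1240 and 1821 at 12, 1475 and 1156 at 16, and 1642, 1384, 1145 and 2249 at 30 weeks. Their shams read 1385 and 1602, 1984 and 2472, 1959 and 1581, and 2316 and 1910, so that the groups overlapped at 30 weeks alone. In banding it fell by 0.53 ± 0.135 (adjusted p = 0.0147). After infarction it read 1589, 1595, 1100 and 948 at 3 weeks and 1548, 1430, 1422 and 1966 at 9 weeks, all below the shams (1960 and 1900, then 2226 and 2250), but the mean of -0.55 ± 0.171 was not called (adjusted p = 0.0993). The shunt gave 2514 and 1815 at 3 weeks, overlapping with sham (1828 and 2550), and 1195 and 1952 at 8 weeks, below both shams (2095 and 2801).

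The exact rank sum test of the 26 treated against the 18 control log2 ratios, with Bonferroni correction at 5.72e-06, passed 6 of the 8 genes, namely C1qb, Serping1, Lyz2, Ctss, Grn and Cd1d1, where 1.34% of all probe sets passed. C1s did not (unadjusted exact p = 0.000126, two-sided). The study's core list, drawn from these arrays by a rank sum test with Bonferroni correction, holds the same 6 genes. Their passing was thus known in advance, and the share of 1.34% is no background for it. This test takes all 44 ratios as exchangeable. The 2 control ratios of a group mirror each other around 0, since each control enters its own control mean. Treated arrays of a group share their controls. The p-values of this test are therefore approximate and can be too small. By limma none of the 8 passed without the banding groups, where Lyz2 was at 0.76 (adjusted p = 0.09), C1qb at 0.39 (adjusted p = 0.221) and Cd1d1 at -0.34 (adjusted p = 0.22). Without vehicle replicate 1 the 7 calls became 5, as C1qb at 0.36 (adjusted p = 0.086) and Ctss at 0.39 (adjusted p = 0.0729) no longer passed, and the rank sum test then passed 3 genes.

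**Figure D2:**
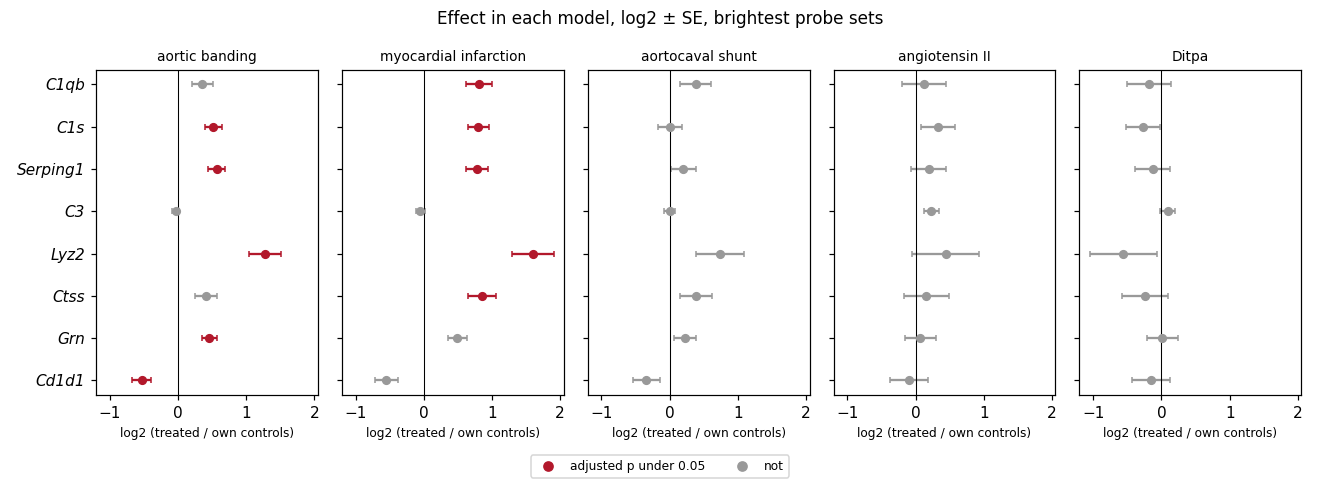
Log2 difference between treated and own control arrays, ± SE, for the brightest probe set of each gene in the 5 models, with red points where the adjusted p was below 0.05. Calls were made in banding and infarction only, and the Ditpa points of Lyz2, Ctss, C1s and C1qb lay below 0.

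By model, banding called 4 of the 8 genes higher (C1s, Serping1, Lyz2 and Grn) and 1 lower (Cd1d1), where 3.28% and 1.98% of all probe sets were called. Without infarction replicate 1 of 9 weeks, whose spread enters every test, C1qb at 0.36 (adjusted p = 0.0191) and Ctss at 0.41 (adjusted p = 0.0204) passed in banding too. Cd1d1 lost its call in banding without replicate 1 of 12 weeks (-0.46, adjusted p = 0.0529) or replicate 2 of 16 weeks (-0.49, adjusted p = 0.0541). Infarction called 5 higher (C1qb, C1s, Serping1, Lyz2 and Ctss) and none lower, where 1.7% and 0.252% were called. The shunt (0.0458% of all), angiotensin II (0% of all) and Ditpa (0% of all) called none of the 8 by limma, and at an unadjusted p below 0.05 the counts were 1 (Lyz2), 1 (C3) and 0. Shares of all probe sets are for adjusted p, here and below, and none was computed for an unadjusted p. The median effect of the 8 genes was 0.44 in banding, 0.79 in infarction, 0.21 for volume overload by shunt, 0.18 under angiotensin II and -0.16 under Ditpa. A call in infarction and none in the shunt does not show that the models differ. The test of that difference, a moderated F over the 5 models, passed none of the 8 by limma (0.275% of all), and 3 (C1s, Serping1 and Lyz2) were below an unadjusted p of 0.05, C1s at 0.00204. With array weights C1s (adjusted p = 0.0111) and Lyz2 (adjusted p = 0.0167) passed this test. The count of 5 in infarction was 3 without sham replicate 1 of 3 weeks, 2 without sham replicate 2 of 3 weeks and 3 without sham replicate 5 of 9 weeks.

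The high infarction array at 9 weeks, replicate 1, held the highest log2 ratio of the 8 infarction arrays for 5 of the 8 genes (C1qb, C1s, Lyz2, Ctss and Grn), as it did for 23.2% of all probe sets. Its ratio was 3.13 for Lyz2, 2.30 for C1qb and 2.06 for Ctss, and the medians of the other 7 arrays were 1.39, 0.62 and 0.58. Markers of other cells were read in the same array. Of 9 fibroblast markers 3 were highest there, a share near the 23.2% of all probe sets. Postn was among them at 4.23 against 1.91, but the median of the 9 was 0.73 against 0.78 in the other arrays. Of 11 cardiomyocyte markers 0 were highest there, of 13 T and natural killer cell markers 1, and of 5 neutrophil markers 2. Lgals3 stood at 2.92 against 0.55, and 20 of 29 measured lysosomal genes were highest in this array. Of the 9 macrophage markers measured 3 were highest there (Lgals3, Fcgr2b and Cd14), while Csf1r (0.04), Aif1 (-0.05), Cx3cr1 (-0.20) and Ptprc (-0.13) stayed near 0. What set this pool apart was not tested. Without it the infarction effects were 1.33 for Lyz2 (adjusted p = 0.000787), 0.70 for C1s (adjusted p = 0.0038), 0.73 for Serping1 (adjusted p = 0.0101), 0.65 for Ctss (adjusted p = 0.011) and 0.61 for C1qb (adjusted p = 0.00576), so all 5 calls held.

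**Figure D3:**
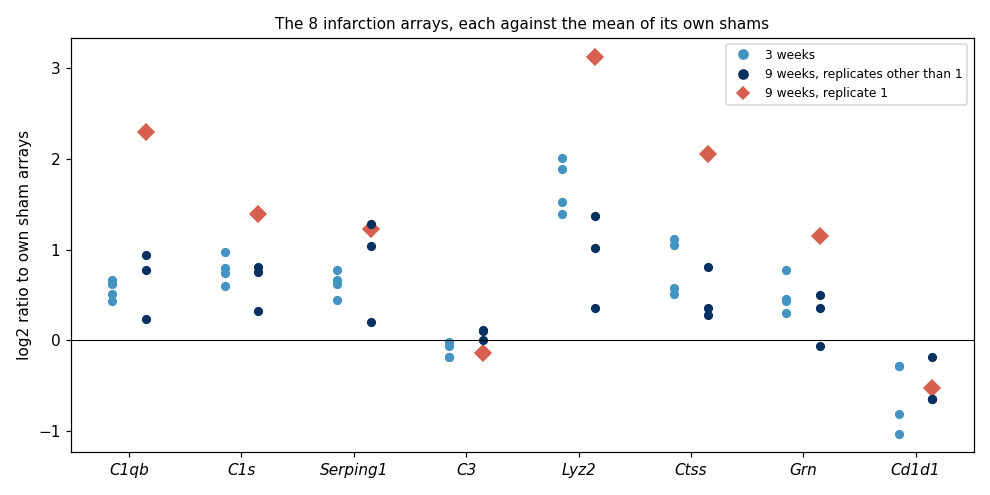
Log2 ratio of each of the 8 infarction arrays to the mean of its own 2 shams, for the brightest probe set of each gene, with 3 weeks in light blue, 9 weeks in dark blue and 9 weeks replicate 1 as a red diamond. The diamond lies at 3.13 for Lyz2 and is the highest point for 5 genes, while for Lyz2 the other 9 week points lie below all 3 week points.

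At single time points, the 9 week infarction called 3 of the 8 genes (C1qb, C1s and Serping1), where 1.92% of all probe sets were called. Their effects were 1.07 ± 0.279, 0.82 ± 0.214 and 0.94 ± 0.223 (adjusted p = 0.0371, 0.0374 and 0.0245). The second Grn probe set passed there as well at 0.69 ± 0.169 (adjusted p = 0.0282), the brighter one not. No gene was called by limma at 3 weeks of infarction (0.206% of all), at 6, 12, 16 or 30 weeks of banding (0.652%, 0.355%, 0.709% and 1.12% of all) or at 3 or 8 weeks of the shunt (0% and 0.0458% of all). At an unadjusted p below 0.05 the counts were 6 at 3 weeks of infarction, 5, 2, 2 and 4 in banding, and 0 and 1 in the shunt. The percentages above are for adjusted p and are no background for these unadjusted counts, whose share over all probe sets was not computed. The 9 week count fell to 0 without replicate 1, without replicate 3 or without either sham array, and rose to 6 without replicate 4, so it rests on single pools. Lyz2 was at 1.74 ± 0.428 at 3 weeks and 1.47 ± 0.428 at 9 weeks of infarction.

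The change of the effect over time was tested directly and called none of the 8 by limma: banding at 30 minus 6 weeks (0.0114% of all), infarction at 9 minus 3 weeks (0% of all) and shunt at 8 minus 3 weeks (0% of all). At an unadjusted p below 0.05 each count was also 0. For Lyz2 these changes were 0.40 ± 0.654, -0.26 ± 0.606 and -0.40 ± 0.7 log2, each smaller than its SE.

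The hormone arrays differed from the surgical ones in their controls. The vehicle arrays read 6742 and 6449 for Lyz2, above all 16 shams (1175 to 3647), 2386 and 2682 for C1qb (shams 1138 to 1535) and 2588 and 2391 for C1s (shams 834 to 1927). Serping1 (2874 and 3069, shams 1438 to 2255), Ctss (2782 and 3224, shams 1321 to 2286) and Grn (7811 and 6975, shams 4849 to 6267) were above all shams as well, but the second Grn probe set (2476 and 2337) lay within its shams (1720 to 2831), and C3 and Cd1d1 lay among them. The share of all probe sets with both vehicle arrays above every sham was not computed, so this cannot be called particular to these genes. A contrast of vehicle with the mean of the 8 sham groups, added after these values were seen, called 1 of the 8 genes, C1s at 0.95 ± 0.185 log2 (adjusted p = 0.0178), where 0.172% of all probe sets were called. Lyz2 stood at 1.51 ± 0.371 (adjusted p = 0.0874) and C1qb at 0.90 ± 0.242 (adjusted p = 0.14). The call was lost without either vehicle array, and without infarction replicate 1 of 9 weeks the count was 4. The vehicle and sham groups differ in procedure and in duration, and the parts of these cannot be told apart.

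Against this vehicle, angiotensin II gave 7407 and 10743 for Lyz2, 2883 and 3397 for C1s and 3081 and 3751 for Serping1, each above both vehicle arrays. The effects were 0.44 ± 0.495, 0.33 ± 0.247 and 0.19 ± 0.258 log2, none of them called (adjusted p = 1 for each). Ditpa gave 3519 and 5720 for Lyz2, both below vehicle, 1682 and 2538 for C1s and 2187 and 3378 for Serping1, and the effects were -0.56 ± 0.495, -0.27 ± 0.247 and -0.13 ± 0.258 (adjusted p = 1 for each). The cardiomyocyte markers had a median of -0.61 log2 with angiotensin II, -0.60 with Ditpa and -0.25 in the shunt, each 0 after quantile normalization, and their part in these effects was not tested. The difference between the surgical and the hormone models called none of the 8 by limma (0.229% of all), 1 being below an unadjusted p of 0.05, Lyz2 at 1.27 ± 0.462 log2 (adjusted p = 0.452), which passed with array weights at 1.24 (adjusted p = 0.018).

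Neonatal hearts had lower levels of 5 of the 8 genes than adult control hearts and a higher level of 1. C1s showed the largest difference, 162 and 190 units against 834 to 2588 in the 18 adult controls, a difference of -2.98 ± 0.184 log2 (adjusted p = 5.04e-14). In these 2 arrays 4.92% and 5.68% of all probe sets were dimmer, and with no measure of background in the table the size of the difference is uncertain. Serping1 read 891 and 563 against 1438 to 3069, a difference of -1.48 ± 0.192 (adjusted p = 3.79e-07), and Cd1d1 850 and 671 against 1385 to 2801, -1.43 ± 0.208 (adjusted p = 2.49e-06). None of these overlapped with the adult range. The share of all probe sets without an overlap was not computed, for neonatal hearts or for the treated groups. Over all probe sets 15.5% were called higher and 17% lower in neonatal hearts, so a call is common here.

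The phagocyte genes gave smaller neonatal differences. Lyz2 read 1607 and 924 against an adult range of 1175 to 6742, overlapping it, with a difference of -1.09 ± 0.369 (adjusted p = 0.0222). Ctss read 1228 and 1126, below the adult minimum of 1321, at -0.68 ± 0.248 (adjusted p = 0.0351). Grn went the other way, with 10202 and 7539 against 4849 to 7811 (0.62 ± 0.17, adjusted p = 0.00478), and on its second probe set 4489 and 3671 against 1720 to 2831 (0.83 ± 0.146, adjusted p = 4.27e-05). Grn was therefore higher both in the mean over the 10 treated groups and in neonatal hearts. Lyz2, Ctss, C1s and Serping1 were higher in the first and lower in the second, and Cd1d1 was lower in both. By single model these genes were called in banding and infarction only, and with the 5 models weighted equally none passed. C1qb (1157 and 1068) was not called at -0.38 ± 0.24 (adjusted p = 0.231). The C3 probe sets gave 0.21 ± 0.0826 (adjusted p = 0.0528) and -0.35 ± 0.127 (adjusted p = 0.0337), in opposite directions.

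The neonatal calls of Lyz2, Ctss and Grn did not all hold with 1 neonatal array. Lyz2 was at -0.69 without neonatal replicate 2 (adjusted p = 0.354), Ctss did not pass without either, at -0.74 and -0.61 (adjusted p = 0.154 and 0.219), and Grn was at 0.41 without replicate 1 (adjusted p = 0.255). Against vehicle alone Grn was at 0.25 (adjusted p = 0.526) and C1qb passed at -1.19 (adjusted p = 0.0106). Of the 11 cardiomyocyte markers measured, 9 were lower and 1 higher in neonatal hearts with a median of -0.65 log2 as deposited and 0 after quantile normalization, and their part in the result was not tested.

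Other genes of the same pathways were counted from lists, against 3.64% higher and 1.57% lower over all probe sets in the average effect and 15.5% and 17% in neonatal hearts. Of 12 complement components measured, 2 rose in the average effect and none fell (C1qb and C1s), with a list median of 0.02 log2. C1r, the partner protease of C1s, was at 0.15 (adjusted p = 0.217) and C1qc, another C1q chain, at 0.04 (adjusted p = 0.824), the latter named for its role after its value was seen. Of 13 regulators and receptors 2 rose and none fell (Serping1 and Clu), with a median of 0.03. Clu, clusterin, which binds the terminal complex, rose by 0.23 (adjusted p = 0.00302). In neonatal hearts 3 of 12 components were lower and none higher (C1s, C1r at -1.18 with adjusted p = 2.84e-07, and Mbl2 at -0.30 with adjusted p = 0.0435), beside 17% of all probe sets. Of the regulators 4 of 13 were lower and 1 higher there, among them C1qbp at 0.95 (adjusted p = 1.99e-06) and Cd59b at -0.63 (adjusted p = 0.00145).

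**Figure D4:**
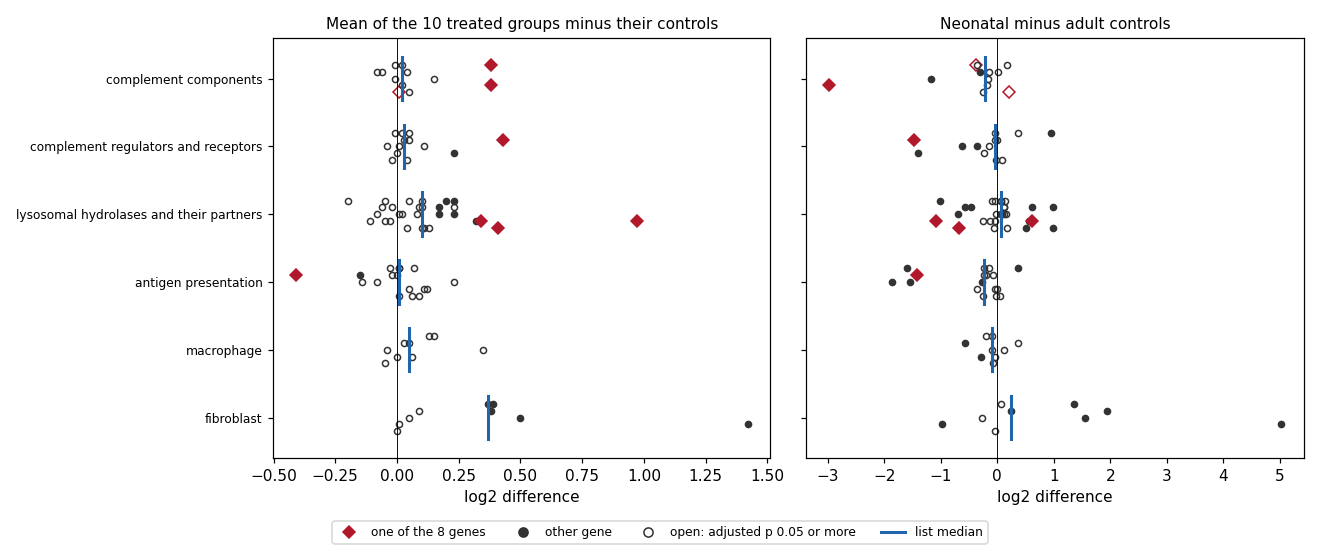
Log2 difference of each measured gene in 6 gene lists, for the mean of the 10 treated groups (left) and for neonatal minus adult controls (right), with the 8 genes as red diamonds, filled symbols for an adjusted p below 0.05 and a blue bar at the list median. The list medians of complement components, regulators, antigen presentation and macrophage markers lie between 0.01 and 0.05 on the left, and C1s is at -2.98 on the right.

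Of 29 lysosomal genes measured, 9 rose in the average effect and none fell, with a list median of 0.10 log2. Besides Lyz2, Ctss and Grn these included the cysteine proteases Ctsl, at 0.32 (adjusted p = 0.00466), and Ctsb, at 0.23 (adjusted p = 0.0302). In banding 6 rose and 1 fell, in infarction 6 rose and none fell, and none passed in the shunt or with either hormone. In neonatal hearts 6 were higher and 6 lower, shares near those of all probe sets (15.5% and 17%), among them Igf2r, a receptor that carries enzymes to the lysosome, at 0.99 (adjusted p = 6.63e-10) and Cst3, an inhibitor of cysteine cathepsins, at -1.02 (adjusted p = 1.2e-06). Of 17 genes of antigen presentation 2 fell and none rose in the average effect, Cd1d1 and Psme1 (-0.15, adjusted p = 0.0251). In neonatal hearts 5 were lower and 1 higher, with Cd74, the class II invariant chain that Ctss cleaves, at -1.87 (adjusted p = 7.7e-11) and B2m, which pairs with Cd1d1, at -1.60 (adjusted p = 1.52e-11).

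Markers of cells that make these proteins were followed alongside. Of 9 macrophage markers measured, out of 27 listed, none passed in the average effect by limma, and their median was 0.05 log2. The mean intensities of these 9 ran from 232 units (Fcgr2b) to 2700 (Csf1r), and without a measure of background their detection could not be judged. The summed signal of the 9 was 11620 to 19690 in infarction against 11290 to 12000 in its shams, and 10820 to 12680 in banding against 10360 to 11960. In infarction the list median was 0.08 log2 and none of the 9 passed. In infarction replicate 1 of 9 weeks Lgals3 alone stood at 2.92 log2, while the median of the 9 was 0.04. Of 9 fibroblast markers measured, 5 rose and none fell in the average effect (Postn, Col3a1, Col1a1, Col1a2 and Lum), with a median of 0.37, and 6 rose in infarction with a median of 0.73. Lgals3, galectin-3 of activated macrophages and other cells, which passed in no comparison and is named after its values were seen, was at 0.35 on average (adjusted p = 0.133) and at 0.86 in infarction (adjusted p = 0.0624). The part that numbers of macrophages or fibroblasts play in the rise of C1qb, C1s, Serping1, Lyz2, Ctss and Grn was not tested.

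Among themselves, the brighter probe sets of the genes that rose had positively correlated ratios over the 26 treated arrays. These ran from r = 0.63 for C1qb with Grn to 0.91 for C1qb with Ctss. Lyz2 correlated with Ctss at 0.88, C1s with Lyz2 at 0.86, and Lyz2 with Grn at 0.80. C1s with C1qb was at 0.69, and Serping1 with Ctss at 0.67. The second Grn probe set was at 0.57 with Lyz2 and 0.56 with Ctss. The share of all gene pairs that correlated this closely was not computed. Cd1d1 correlated with the brighter probe sets of the 6 genes that rose at -0.21 to -0.38, and C3 at -0.08 to -0.51. Ranked over all genes, the 3 patterns most like each gene were Lgals3, Ctss and Spp1 for C1qb (r = 0.92, 0.91 and 0.91), Serping1, Lyz2 and S100a10 for C1s (0.86, 0.86 and 0.83), and Anxa2, Rpl3 and C1s for Serping1 (0.86 each). For Lyz2 they were S100a10, Hsd11b1 and Fn1 (0.92, 0.90 and 0.88), for Ctss Fxyd2, C1qb and RT1-Da (0.91, 0.91 and 0.88), and for Grn Smc2, Fstl1 and Ctsl (0.88, 0.87 and 0.87). Cd1d1 was most like Mipep, Fabp4 and Dio1 (0.75, 0.74 and 0.71) and C3 most like Fbxo2, Cmklr1 and Or8g20b (0.80, 0.78 and 0.76). These are descriptions over 26 ratios, in which arrays of 1 group share their controls and 1 infarction pool lies far from the rest.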

How the data were processed

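Per the study's methods, the authors hybridised RNA pools to Affymetrix rat genome arrays, normalised them by invariant rank fitting, left out control probe sets and computed model-based values from the perfect-match probes in dChip, whose version is not given in the sources used here. The deposited values are intensities on a linear scale, and the deposited table has no header of its own on processing. Gene symbols came from the platform annotation (7006 probe sets with 1 symbol, 308 with several, 1426 with none). Intensities below 16 were set to 16 before taking log2, which touched none of the 8 genes. A linear model in limma 3.58.1 (R 4.3.3) gave 1 mean for each of 20 groups over 46 arrays, with 26 residual degrees of freedom. P-values were adjusted by Benjamini-Hochberg over 8740 probe sets. The methods' rank sum test was run as an exact test on log2 ratios. Drawings were made with matplotlib. In data simulated for the average effect on 8740 probe sets, 97% of changes of 0.5 log2 were recovered. The genes named from a list are those that passed for the average effect, up to 5, and up to 2 more that passed elsewhere, apart from C1qc and the markers given for single arrays, Lgals3 included, which were named after their values were seen, and the most similar genes are the 3 with the highest correlation. The members and lists were chosen with earlier results of these data known. Alternatives were another floor, quantile normalization, a filter on dim probe sets, array weights, means over probe sets, a replicate block, other weights of the models, other tests, other controls for the neonatal arrays and leaving out each array.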

Additional observations from a re-analysis of the deposited data

Results flagged for a closer look

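In the banded hearts of 30 weeks, Ctss read 3460 in replicate 2, and the gap between it and the next array took up 0.946 of the range of the group on the log2 scale, past Dixon's limit for 4 arrays. The other 3 arrays lay at 2041 to 2100. In all 33 groups of 4 were examined, 11 probe sets in each of 3 groups, and 1 was past the limit, where chance alone flags about 1 in 20. The same pool also had the highest value of its group for C1qb, C1s, Serping1, Lyz2 and Grn. The share of all probe sets with their highest value of the group in this pool was not computed. Without it banding still called 5 of the 8 genes, and the cause was not tested.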

How the results depend on the processing

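Of 3385 effects of single genes recomputed under alternatives, 3282 kept their direction and their side of the threshold, as did 769 of 787 counts within a factor of 1.5. The average call count of 7 genes was 0 with the 5 models weighted equally, 0 without the banding groups and 4 without the infarction groups (Serping1, Lyz2, Grn and Cd1d1). With array weights the surgical minus hormone contrast called 1 gene (Lyz2) and the difference between models 2 (C1s and Lyz2). Leaving out single arrays gave counts of 5 to 7 for the average, 4 to 7 in banding, 2 to 7 in infarction, 4 to 8 in neonatal hearts and 3 to 6 for the rank sum test. For 2 contrasts added after seeing the data, the counts were 0 to 6 at 9 weeks of infarction and 0 to 4 for vehicle minus sham. The causes were not tested.

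Directions turned for effects that were not called. C3 was 0.00 for the average after quantile normalization and -0.03 without the hormone and vehicle arrays, and the mean over its probe sets gave 0.02 in banding, 0.05 in infarction, -0.03 in the shunt and -0.07 in neonatal hearts. C1s was 0.00 in the shunt after quantile normalization. Leaving out single arrays, C3 ranged from -0.01 to 0.03 for the average, -0.07 to 0.01 in banding, -0.02 to 0.03 in the shunt, -0.04 to 0.08 at 9 weeks of infarction and 0.00 to 0.17 with Ditpa, and C1s from -0.10 to 0.12 in the shunt. With angiotensin II the ranges were -0.09 to 0.34 for C1qb, -0.11 to 0.44 for Ctss, -0.01 to 0.16 for Grn and -0.37 to 0.18 for Cd1d1. With Ditpa they were -0.37 to 0.02 for C1qb, -0.56 to 0.03 for C1s, -0.44 to 0.19 for Serping1 and -0.13 to 0.15 for Grn.

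A replicate block for the hormone and vehicle arrays, whose numbers do not pair the samples (correlations of deviations -0.04, -0.06 and -0.08), left the counts as they were except in neonatal hearts, where 7 genes passed, C3 among them at 0.21 (adjusted p = 0.043). Pools of 2 arrays per group, dim signal of C3, and a macrophage list measured only in part limit these results.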
